A study of Mus musculus with 11 samples.

Results

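The breakdown of the branched-chain amino acids leucine, isoleucine and valine was examined through 10 genes that encode its enzymes, Bcat2, Bckdha, Bckdhb, Dbt, Ivd, Mccc1, Mccc2, Pcca, Pccb and Acadsb. They were taken by symbol, and all 10 were among the 12787 genes with values. RNA had been sequenced from the gonadal white adipose tissue (WAT) of 11 male C57Bl6/J mice without engineered alleles, 1 library per mouse. Every mouse was fed a 60% high fat diet (HFD) for 20 weeks. The 5 HFD control mice, labelled vehicle, received that diet alone. The 6 IMC-treated mice received it with 0.06% w/w iodomethylcholine (IMC), an inhibitor of the gut microbial enzyme that makes trimethylamine from choline. The vehicle group had 6 mice, of which 1 failed quality control and was not analysed here. The labels give no cage and no batch. The study's methods state that each condition had more than 1 cage and that bedding was mixed across cages before treatment. Since the drug was in the diet, cages lie within treatments. With the cage of each mouse unlabelled, the part of cages cannot be told apart from that of treatment here. Per the study's legend for the 20-week design, the diets began when the mice were 6 weeks old.

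Branched-chain amino acids are first stripped of their amino group by a transaminase, which in most tissues outside the liver is the mitochondrial enzyme encoded by Bcat2. The resulting keto acids are committed to oxidation by the branched-chain keto acid dehydrogenase complex in the mitochondrial matrix, which is switched off by the kinase encoded by Bckdk and switched on by the phosphatase encoded by Ppm1k. The pathways of the amino acids then part, and they end in acetyl-CoA, acetoacetate or propionyl-CoA, the last of which enters the citric acid cycle as succinyl-CoA. Adipocytes use the carbon for lipid synthesis and respiration, and the pathway is known to be expressed at a low level in obese WAT.

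Depth ran from 22320022 to 25155366 reads over the listed genes per library, and each of the 10 genes had between 723 and 3447 reads in every mouse. Values are log2 CPM (CPM, read counts relative to a library size that the authors scaled by the upper quartile), and errors written with ± are SD over the mice of a group (n = 5 controls and n = 6 treated mice). All 10 adipocyte markers looked up were listed, 8 of them higher in IMC-treated mice and 0 lower, and their summed level ranged from 26646 to 30099 CPM in HFD control mice and from 36469 to 41290 CPM in IMC-treated mice. Macrophage markers were lower for 8 of 10 genes and higher for 0, with summed levels of 8527 to 10991 CPM in HFD control mice and 4914 to 7381 CPM in IMC-treated mice. Markers of fibroblasts were lower for 3 of 6 genes, of mast cells for 4 of 4 and of mesothelium for 1 of 4. Endothelial markers were higher for 1 of 5. By the test given below, 20% of all genes were called higher and 21.0% lower. The endothelial and mesothelial counts were thus near the shares over all genes. None of the 5 markers of T and B cells or of the 5 of epididymis was listed, Ucp1 was not listed among the brown adipocyte markers, of which 1 of 3 was higher, and of the 6 skeletal muscle markers only Acta1 was listed, which was higher. Because whole tissue was sequenced, fewer cells of a type and less RNA per cell cannot be told apart in any of the values below.

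In IMC-treated mice, 9 of the 10 genes stood higher than in HFD control mice and 0 lower, while Bcat2, the gene of the first step, did not pass the test. Genes were compared by limma on the log2 CPM of all 12787 genes with Benjamini-Hochberg adjustment, and a gene was called at an adjusted p under 0.05. Among all genes 40.9% were called, 20% higher and 21.0% lower. For the same 9 genes every IMC-treated mouse was above every HFD control mouse, which held for 12.5% of all genes. The median log2 fold change of the 10 genes was 0.59, beside -0.03 over all genes, and the 9 called genes rose by 0.43 to 0.67, or 1.34-fold to 1.59-fold. The rise came with the higher adipocyte and lower macrophage markers given above, and their part in it was not tested.

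**Figure D1:**
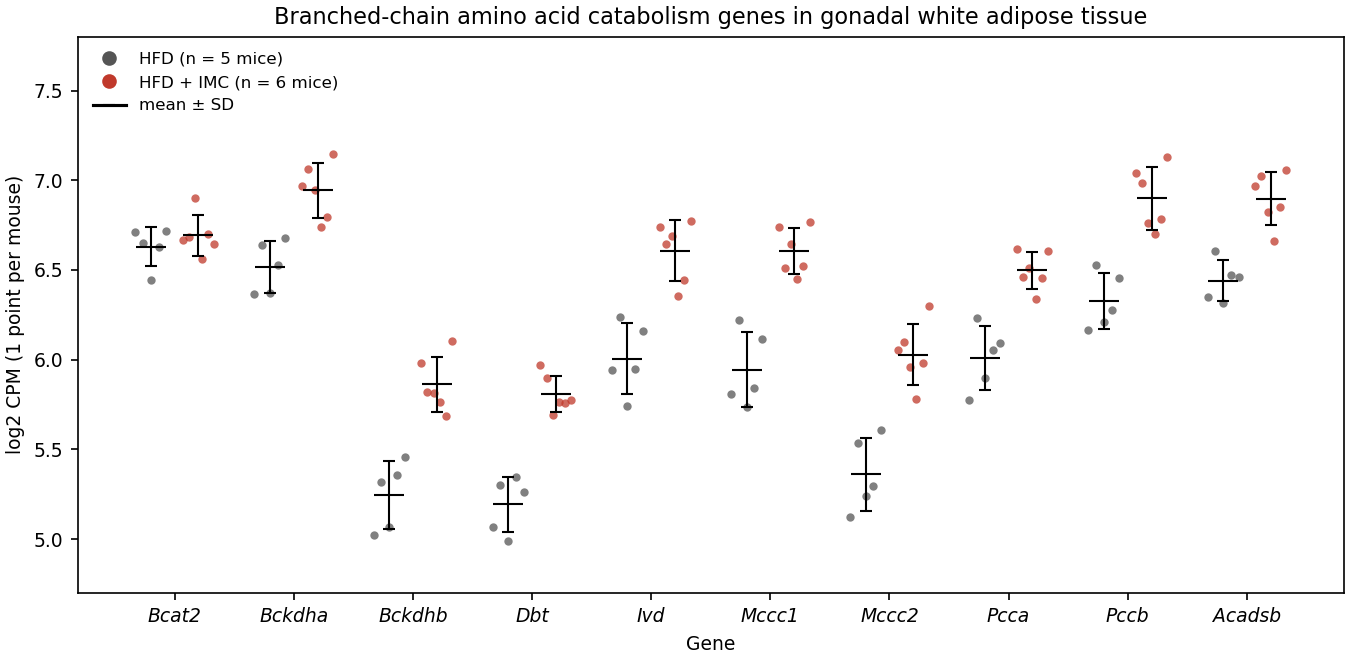
Level of each of the 10 genes in log2 CPM, with a point for each mouse (grey, 5 HFD control mice; red, 6 IMC-treated mice) and black bars for the mean ± SD. The red points lie above all grey points for every gene but Bcat2, where the groups overlap.

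The sequence before the start of the genes was taken from RefSeq promoters of GRCm38.p6, the same build as the mm10 alignment. Entries were found for 9 of the 10 genes, all but Dbt. Where a gene had several entries, the one with its start nearest the GENCODE start was taken. Shares over all windows count every entry instead. In the 250 bases upstream of the start, the CCAAT box (CCAAT on either strand, so CCAAT or ATTGG) was present in 5 of the 9 genes, Bckdhb, Ivd, Mccc1, Mccc2 and Pcca, and in 33.8% of the 32851 upstream windows of the table. Upstream windows are given to set 3 genes that rose and that hold several CCAAT boxes beside Bcat2, which did not pass the test and holds none. Capitals mark CCAAT or ATTGG.
Bckdhb, chr9:83924887-83925136 (plus strand): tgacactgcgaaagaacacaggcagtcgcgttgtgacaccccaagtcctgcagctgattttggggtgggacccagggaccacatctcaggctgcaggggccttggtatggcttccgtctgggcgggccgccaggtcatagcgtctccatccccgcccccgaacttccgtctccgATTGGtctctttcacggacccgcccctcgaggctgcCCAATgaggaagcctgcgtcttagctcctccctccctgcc
Mccc1, chr3:36000679-36000928 (minus strand): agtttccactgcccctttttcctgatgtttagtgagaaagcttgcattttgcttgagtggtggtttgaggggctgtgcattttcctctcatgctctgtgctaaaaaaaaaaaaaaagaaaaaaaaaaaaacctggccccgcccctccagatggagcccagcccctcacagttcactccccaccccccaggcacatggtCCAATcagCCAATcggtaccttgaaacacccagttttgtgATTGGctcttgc
Mccc2, chr13:100015640-100015889 (minus strand): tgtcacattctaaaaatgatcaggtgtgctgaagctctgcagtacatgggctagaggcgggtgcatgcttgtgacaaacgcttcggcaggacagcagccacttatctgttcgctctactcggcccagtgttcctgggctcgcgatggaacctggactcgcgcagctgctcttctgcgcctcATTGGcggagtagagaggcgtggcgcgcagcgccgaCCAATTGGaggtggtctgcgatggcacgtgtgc
Bcat2, chr7:45569903-45570152 (plus strand): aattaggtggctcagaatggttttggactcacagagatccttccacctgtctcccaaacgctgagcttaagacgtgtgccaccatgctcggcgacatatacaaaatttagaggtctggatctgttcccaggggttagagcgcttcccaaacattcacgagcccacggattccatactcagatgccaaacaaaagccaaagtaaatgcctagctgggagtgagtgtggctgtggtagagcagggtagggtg
Ivd held 4 CCAAT boxes, Mccc1 and Mccc2 3 each, Bckdhb 2 and Pcca 1, and in Mccc2 a pair overlapped as CCAATTGG. Bckdha, Pccb and Acadsb, which also rose, held none, so the box did not separate the genes that rose from Bcat2. Windows were counted from the RefSeq start, which can differ from the GENCODE start. The Bckdha window, chr7:25658762-25659011 (minus strand), lies mostly inside the GENCODE gene, which ends at 25658981. Those of Ivd, Pcca and Pccb also reach into their genes, by fewer bases. The GC box (GGGCGG on either strand) was present in Bckdhb, Mccc1, Pcca and Acadsb, 4 of the 9 genes, and in 32.7% of all windows. The CACCC box (CCACCC on either strand) was present in 3 of the 9 genes and in 28.1% of all windows. An E-box (CACGTG) was found only in Mccc2 among the 9 windows, beside 6.02% of all windows, and the NRF1 element (GCGC and TGCGC on either side of any base) only in Pccb, beside 3.74%. The ERR element (TNAAGGTCA), the PPAR element (a direct repeat of AGGTCA around any base) and the ETS element (CCGGAAG), each on either strand, were in none of the 9 windows, beside 1.14%, 0.0335% and 6.91% of all windows. The PPAR and ERR letters share the stretch AGGTCA and can overlap. The 9 windows had a median GC content of 57.6%, beside 52.4% over all windows.

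Bcat2 encodes the mitochondrial branched-chain aminotransferase and is located on chromosome 7 of the GRCm38 build, from 45570153 to 45589711. HFD control mice 2 to 6 had 6.71, 6.65, 6.45, 6.63 and 6.72 log2 CPM, and the IMC-treated mice ranged from 6.56 to 6.90 with a median of 6.68. The groups overlapped, between 6.56 and 6.72. The log2 difference between the group means was 0.06 (SE 0.06, limma adjusted p = 0.466), with a 95% interval of -0.08 to 0.20. The upper end of that interval lies below the smallest rise among the other 9 genes. Bcat2 shares 508 exonic bases with an annotated gene on the opposite strand. The study names a directional library kit, but the strand setting of the count is not given in the sources used here. Reads of that gene could therefore have been counted with Bcat2 or left out. Bcat2 was set against the other members after their values had been seen, and so without a test. For 7 of the 9 genes, its log2 ratio to that gene was lower in every IMC-treated mouse than in every HFD control mouse. Those 9 genes were each higher without overlap by themselves, as were 12.5% of all genes. A gene that did not move would thus tend to give lower ratios as well, and the share of all genes that do so was not counted. Against Dbt the log2 ratio was 1.44 ± 0.13 in HFD control mice and 0.88 ± 0.18 in IMC-treated mice, and the ranges overlapped against Pccb and Acadsb.

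Bckdha, Bckdhb and Dbt encode the E1 alpha, E1 beta and E2 subunits of the branched-chain keto acid dehydrogenase complex, and all of them rose. Dbt, on chromosome 3 from 116513070 to 116549981, had 5.07, 5.30, 4.99, 5.34 and 5.26 log2 CPM in HFD control mice 2 to 6 and between 5.69 and 5.97 (median 5.77) in IMC-treated mice. The gap between the groups, 0.35 log2 units, was the widest of the 10 genes. Its log2 fold change of 0.62 (SE 0.07) had the smallest adjusted p of the members, 6.17e-05 by limma. Bckdhb, on chromosome 9 from 83925145 to 84124240, had 5.03, 5.32, 5.07, 5.35 and 5.46 log2 CPM in HFD control mice and between 5.69 and 6.11 (median 5.82) in IMC-treated mice. The lowest IMC-treated mouse stood 0.23 above the highest control, and the rise in log2 was 0.62 (SE 0.09, limma adjusted p = 0.000252). Bckdha, on chromosome 7 from 25629946 to 25658981, carries the serines through which the complex is switched off by phosphorylation. It had 6.37, 6.64, 6.37, 6.53 and 6.68 log2 CPM in HFD control mice and between 6.74 and 7.15 (median 6.96) in IMC-treated mice. The groups were separated by 0.06, and the log2 fold change of 0.43 (SE 0.08, limma adjusted p = 0.00130) was the smallest among the 9 members that were called.

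Ivd, Mccc1 and Mccc2 act on the leucine branch, and they rose by similar amounts. Ivd encodes isovaleryl-CoA dehydrogenase and lies on chromosome 2 from 118861954 to 118882909. HFD control mice had 5.94, 6.24, 5.74, 5.95 and 6.16 log2 CPM of Ivd, and IMC-treated mice between 6.35 and 6.78 (median 6.67), which left a gap of 0.11. It rose by a log2 of 0.60 (SE 0.10, limma adjusted p = 0.000424). The subunits of methylcrotonyl-CoA carboxylase followed: Mccc1, the biotin-carrying alpha subunit on chromosome 3 from 35959312 to 36000678, had 5.81, 6.22, 5.74, 5.84 and 6.11 log2 CPM in HFD control mice and between 6.45 and 6.77 (median 6.59) in IMC-treated mice. It rose by a log2 of 0.66 (SE 0.09, limma adjusted p = 0.000154), and it shares 216 exonic bases with 2 annotated genes on the opposite strand. Mccc2, the beta subunit on chromosome 13 from 99948530 to 100015639, had 5.13, 5.53, 5.24, 5.29 and 5.61 log2 CPM in HFD control mice and between 5.78 and 6.30 (median 6.02) in IMC-treated mice. Mccc2 rose by 0.67 (SE 0.10, limma adjusted p = 0.000246), which was the largest of the 10 genes, with a 95% interval of 0.46 to 0.88.

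Acadsb encodes the short/branched-chain acyl-CoA dehydrogenase of isoleucine breakdown, on chromosome 7 from 131410601 to 131448944. It had 6.35, 6.61, 6.31, 6.47 and 6.46 log2 CPM in HFD control mice and between 6.66 and 7.06 (median 6.91) in IMC-treated mice. The gap of 0.06 was narrow, and HFD control mouse 3 was the closest to the treated group. The log2 fold change was 0.46 (SE 0.07, limma adjusted p = 0.000464). Pcca and Pccb encode the subunits of propionyl-CoA carboxylase, which takes up the propionyl-CoA from isoleucine and valine. Pcca, on chromosome 14 from 122534324 to 122891100, had 5.77, 6.23, 5.90, 6.05 and 6.09 log2 CPM in HFD control mice and between 6.34 and 6.61 (median 6.49) in IMC-treated mice, and rose by 0.49 (SE 0.08, limma adjusted p = 0.000405). Pccb, on chromosome 9 from 100982032 to 101034898, had 6.17, 6.53, 6.21, 6.28 and 6.45 log2 CPM in HFD control mice and between 6.70 and 7.13 (median 6.88) in IMC-treated mice. It rose by a log2 of 0.57 (SE 0.09, limma adjusted p = 0.000343), and the groups of both subunits were apart, by 0.10 for Pcca and 0.18 for Pccb.

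Per kilobase of exon, Bckdha had the highest level and Dbt the lowest in both groups. In HFD control mice Bckdha had a mean of 5.59 ± 0.14 log2 CPM per kilobase, followed by Bcat2 with 5.32, Pccb with 5.11, Mccc1 with 4.65, Pcca with 4.64, Bckdhb with 4.55, Mccc2 with 4.27, Ivd with 4.13, Acadsb with 3.69 and Dbt with 3.47. Neighbours in this order overlapped over the mice except Bckdha and Bcat2, Pccb and Mccc1, and Ivd and Acadsb. In IMC-treated mice Bckdha had 6.02 ± 0.16, Pccb with 5.69 stood above Bcat2 with 5.38, and Dbt had 4.09. There, the ranges of all neighbours overlapped except Ivd and Acadsb. Exonic lengths were those of the GENCODE M21 annotation of GRCm38, which may differ from the transcripts counted.

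The members that rose also varied together among mice of the same group. After the group mean of each gene was subtracted, the Pearson r over the 11 mice had a median of 0.81 and a range of 0.48 to 0.93 over the 36 pairs of these 9 genes. Bcat2 had r between 0.03 and 0.54 with them, with a median of 0.20. The median r of a member with all other listed genes lay between -0.01 and 0.05. That median keeps the sign of r, so positive and negative values can cancel, and it is no baseline for the pairs above. Bckdha and Mccc2 were the closest pair with 0.93, and Dbt and Mccc2 the least close of the 9 with 0.48. Among HFD control mice, 3 and 6 had the highest mean over the 10 genes and 2 and 4 the lowest, and among IMC-treated mice 12 and 7 had the highest and 10 the lowest. The mean of the adipocyte markers had a within-group r of 0.62 to 0.88 with the 9 genes and 0.16 with Bcat2. For the mean of the macrophage markers r was -0.94 to -0.58 with the 9 genes and 0.15 with Bcat2. These are descriptions over 11 mice whose values share the libraries and their scaling.

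**Figure D2:**
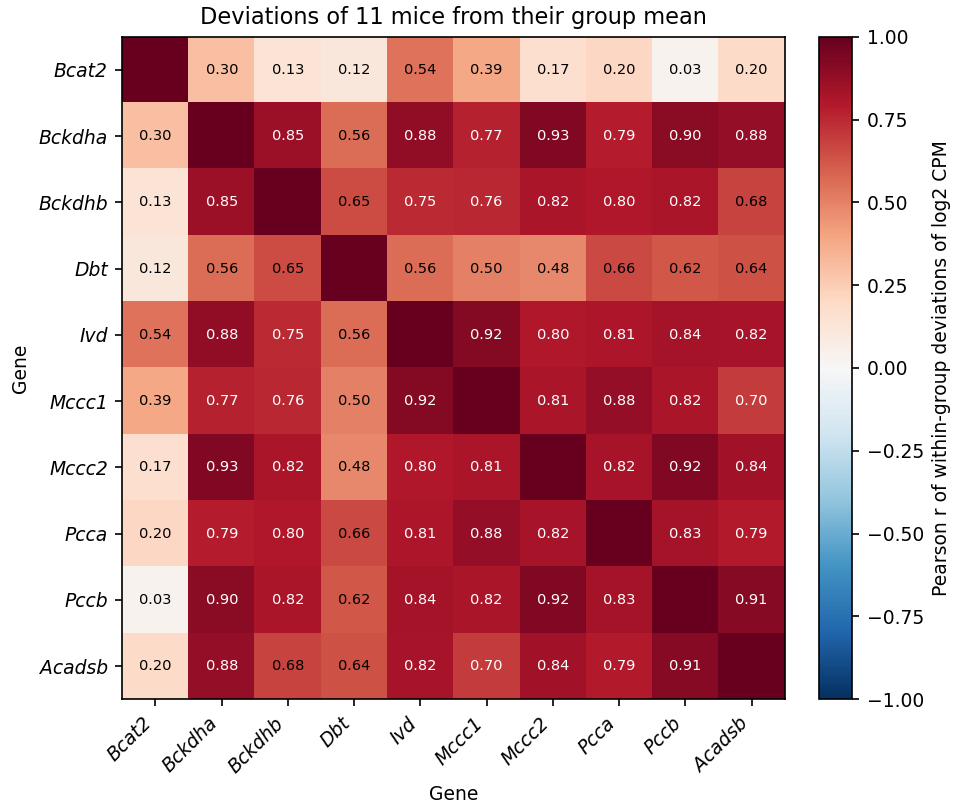
Pearson r between members over 11 mice after subtracting the group means of log2 CPM, with rows and columns for the genes and colour for r from -1 to 1. The Bcat2 row is the palest, with r of 0.03 to 0.54, and the other pairs lie between 0.48 and 0.93.

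The members were also expressed relative to the adipocyte markers, whose mean rose by more than any member. When the mean log2 CPM of the 10 adipocyte markers of a mouse was subtracted from every gene of that mouse and limma was run again over all genes, 0 members were called higher and 4 lower. Nearly all genes fall on this scale, with 90.3% of all genes called lower and 1.24% higher and a median log2 difference of -0.73 over all genes, beside -0.12 over the 10 members. Bcat2 differed by -0.64 (SE 0.10, limma adjusted p = 8.20e-06), Bckdha by -0.28 (adjusted p = 0.00568), Acadsb by -0.25 (adjusted p = 0.0158) and Pcca by -0.22 (adjusted p = 0.0192). For Mccc2, Mccc1, Bckdhb, Dbt, Ivd and Pccb the differences were between -0.04 and -0.13 and did not pass the test. Mccc2, with -0.04, had an interval of -0.23 to 0.15 and Pccb, with -0.13, one of -0.32 to 0.05. The adipocyte markers themselves rose by 0.71 on average (10.41 ± 0.19 log2 CPM against 11.11 ± 0.08). The subtraction lowers the log2 difference of every gene by that amount. The largest rise of a member, 0.67 for Mccc2, is smaller, so all 10 differences were bound to be negative.

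**Figure D3:**
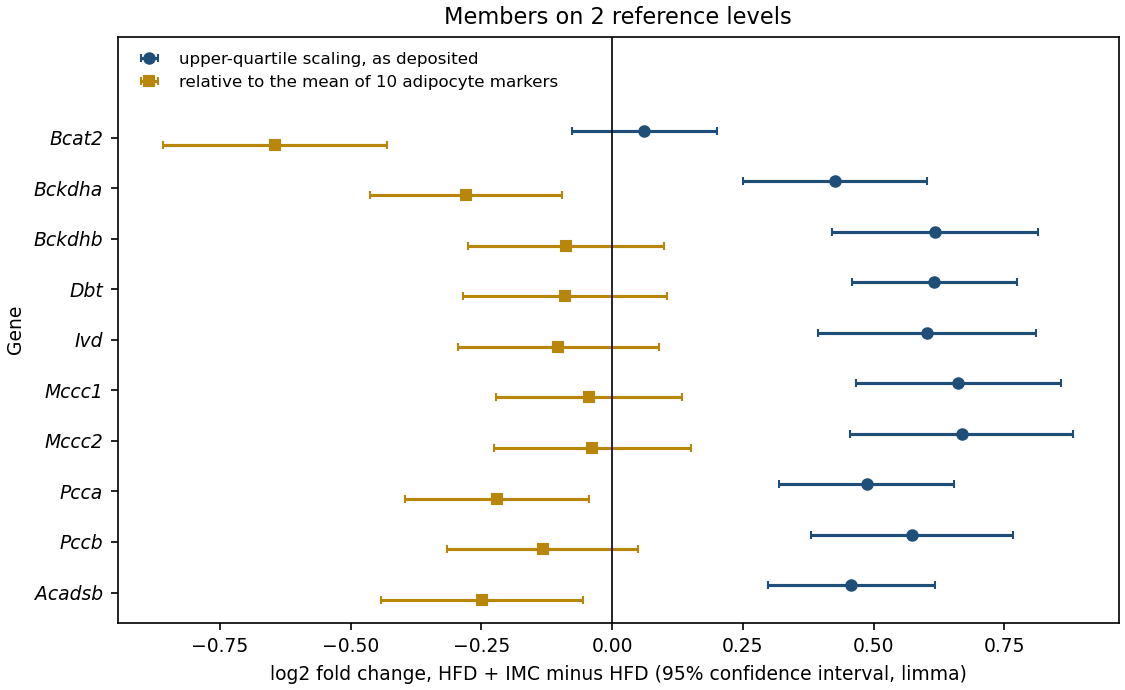
Log2 fold change of each member (IMC-treated minus HFD control mice) with its 95% interval from limma, on the scale of the deposited values (blue circles) and relative to the mean of 10 adipocyte markers of the same mouse (yellow squares). Blue circles other than Bcat2 lie between 0.43 and 0.67, while yellow squares lie between -0.64 and -0.04.

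Ratios between partner genes within a mouse ask whether subunits or paired steps moved apart. Gene length is part of each ratio and cancels only in the difference between the groups. Each of 6 ratios was put to an exact permutation test, two-sided, enumerating the 462 ways to split 5 and 6 mice. None had an adjusted p under 0.05, with adjustment over the 6 ratios, and 1 had an unadjusted p under 0.05. That ratio was Bckdha to Bckdhb, with a log2 ratio of 1.34, 1.32, 1.30, 1.17 and 1.22 in HFD control mice and between 0.98 and 1.24 in IMC-treated mice. It differed by -0.19, from 1.27 ± 0.07 to 1.08 ± 0.10, with overlap (exact permutation p = 0.0130, adjusted 0.0779). Without IMC-treated mouse 8, the difference was -0.22 and the adjusted exact p was 0.0476. In the other 10 of the 11 fits that left out a mouse the ratio did not pass, with adjusted exact p of up to 0.162. Dbt to Bckdha differed by 0.19 (exact permutation p = 0.0519, adjusted 0.121) and Ivd to Acadsb by 0.15 (exact permutation p = 0.0606, adjusted 0.121).
Mccc1 to Mccc2 was 0.58 ± 0.09 in HFD control mice and 0.58 ± 0.12 in IMC-treated mice, a difference within the spread between mice (exact permutation p = 0.926, adjusted 0.978). Pcca to Pccb was -0.32 ± 0.07 and -0.40 ± 0.11, with overlap between the groups (exact permutation p = 0.165, adjusted 0.247). For the kinase and the phosphatase of the complex, Bckdk to Ppm1k was 2.61 ± 0.24 and 2.60 ± 0.21 (exact permutation p = 0.978, adjusted 0.978).

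**Figure D4:**
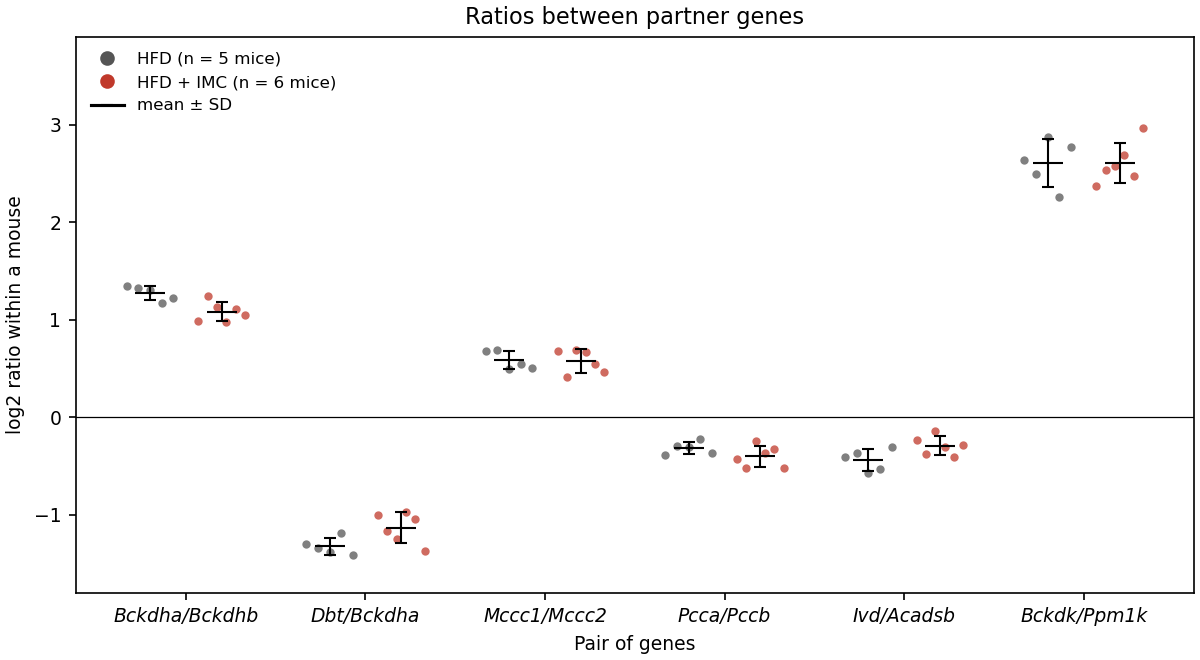
Log2 ratio of the named genes within each mouse (grey, 5 HFD control mice; red, 6 IMC-treated mice), with black bars for the mean ± SD. The groups overlap for all 6 pairs. The largest differences of means are those of Bckdha/Bckdhb, -0.19, and Dbt/Bckdha, 0.19, which share Bckdha.

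The other enzymes of the pathway were looked up from a list, of which 16 genes with values are reported here. Of these 16, 11 were higher in IMC-treated mice and 5 did not pass the test, with a median log2 fold change of 0.43. Over all genes 20% were called higher and 21.0% lower, with a median of -0.03. For 11 of the 16 every IMC-treated mouse was above every HFD control mouse, beside 12.5% of all genes. Relative to the adipocyte markers, which rose in the same mice, 11 of the 16 were lower, with a median of -0.28. Only 1 was higher, Abat, by 0.33 (limma adjusted p = 0.00928). On that scale 90.3% of all genes were called lower and 1.24% higher, with a median of -0.73. The part of the adipocyte markers in the rise was not tested. Abat, a transaminase that also acts on a metabolite of valine and is better known for degrading GABA, had 4.50, 4.98, 4.53, 4.53 and 4.76 log2 CPM in HFD control mice and between 5.42 and 6.14 (median 5.66) in IMC-treated mice. All treated mice were above all controls, and its log2 fold change of 1.04 (SE 0.13, limma adjusted p = 7.88e-05) exceeded that of every member. Aldh6a1, which encodes the methylmalonate semialdehyde dehydrogenase of valine breakdown, had 7.15, 7.71, 7.08, 7.33 and 7.53 log2 CPM in HFD control mice and between 7.98 and 8.29 (median 8.14) in IMC-treated mice. It rose by a log2 of 0.78 (SE 0.11, limma adjusted p = 0.000142). Mut, which encodes methylmalonyl-CoA mutase, rose from 6.14 ± 0.11 to 6.64 ± 0.09 log2 CPM (adjusted p = 6.80e-05 by limma).
On the valine branch, Hibch rose by 0.59 (SE 0.08) and Hibadh by 0.45 (SE 0.07), while Acad8, the isobutyryl-CoA dehydrogenase, had a log2 fold change of 0.13 (SE 0.06, limma adjusted p = 0.0829). On the leucine branch, Auh, which encodes the hydratase that follows methylcrotonyl-CoA carboxylase, rose by 0.55 (SE 0.08). Acat1, which cleaves acetoacetyl-CoA and the isoleucine product, rose by 0.52 (SE 0.10), Echs1, an enoyl-CoA hydratase, by 0.45 (SE 0.08), and Oxct1, the ketone body transferase, by 0.29 (SE 0.05). Dld, the E3 subunit that the complex shares with pyruvate dehydrogenase, rose by 0.35 (SE 0.05). In the propionate pathway, Mmab rose by 0.41 (SE 0.07), whereas Mcee with 0.15 (SE 0.07) and Mmaa with 0.15 (SE 0.07) did not pass the test. Bcat1, the cytosolic aminotransferase, with 0.24 (SE 0.12), and Hsd17b10, with 0.10 (SE 0.05), did not pass either. Calls were gained for Bcat1 without IMC-treated mouse 8 (0.32, limma adjusted p = 0.0212) and, without IMC-treated mouse 10, for Acad8 (0.17, limma adjusted p = 0.0219) and Mcee (0.19, limma adjusted p = 0.0393). The exons of Bcat1, Aldh6a1, Mut and Oxct1 overlap an annotated gene on the opposite strand.

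All 10 regulators, amino acid carriers and biotin enzymes looked up were listed. Of these 10, 5 were higher, 0 were lower and 5 did not pass the test. Their median log2 fold change was 0.17. Over all genes 20% were called higher and 21.0% lower, with a median of -0.03. For 2 of the 10 every IMC-treated mouse was above every HFD control mouse, beside 12.5% of all genes. Relative to the adipocyte markers 0 of the 10 were higher and 9 were lower, all but Klf15, with a median of -0.53. On that scale 90.3% of all genes were called lower, with a median of -0.73, so the count is near the share over all genes. Slc25a44, which encodes the mitochondrial carrier for branched-chain amino acids, had 5.65, 5.73, 5.67, 5.69 and 5.77 log2 CPM in HFD control mice and between 6.04 and 6.17 (median 6.13) in IMC-treated mice. The groups stood 0.27 apart, and it rose by a log2 of 0.41 (SE 0.04, limma adjusted p = 3.50e-05). Btd, which encodes the biotinidase that recycles biotin, rose by 0.40 (SE 0.07, limma adjusted p = 0.000579), also without overlap. Slc7a5, the light chain of a plasma membrane carrier for large neutral amino acids, rose by 0.42 (SE 0.11, limma adjusted p = 0.0105), while its heavy chain Slc3a2 had a log2 fold change of 0.01 (SE 0.07).
Klf15, a transcription factor known to act on amino acid breakdown, had 4.01, 4.48, 3.75, 4.02 and 4.69 log2 CPM in HFD control mice and between 4.29 and 5.01 (median 4.74) in IMC-treated mice. The groups overlapped, and the rise in log2 was 0.52 (SE 0.16, limma adjusted p = 0.0228). Hlcs, which attaches biotin to carboxylases, had a log2 fold change of 0.27 (SE 0.09, limma adjusted p = 0.0278). The call of Klf15 was lost without HFD control mouse 2, 4 or 5, where the log2 fold change was 0.41 to 0.47 with limma adjusted p of 0.0560 to 0.0638. That of Hlcs was lost without HFD control mouse 2 or 3 or IMC-treated mouse 7 or 11, where it was 0.20 to 0.24 with limma adjusted p of 0.0573 to 0.0718. Without HFD control mouse 2, 3 of the 10 genes were higher. Over the fits that left out a mouse, 2178 to 2536 of all 12787 genes were called higher. Bckdk had 6.03 ± 0.08 and 6.10 ± 0.09 log2 CPM and Ppm1k 3.42 ± 0.25 and 3.50 ± 0.16, and neither passed the test. The remaining carriers, Slc7a8 with a log2 fold change of -0.03 and Slc43a1 with -0.19, did not pass either.

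**Figure D5:**
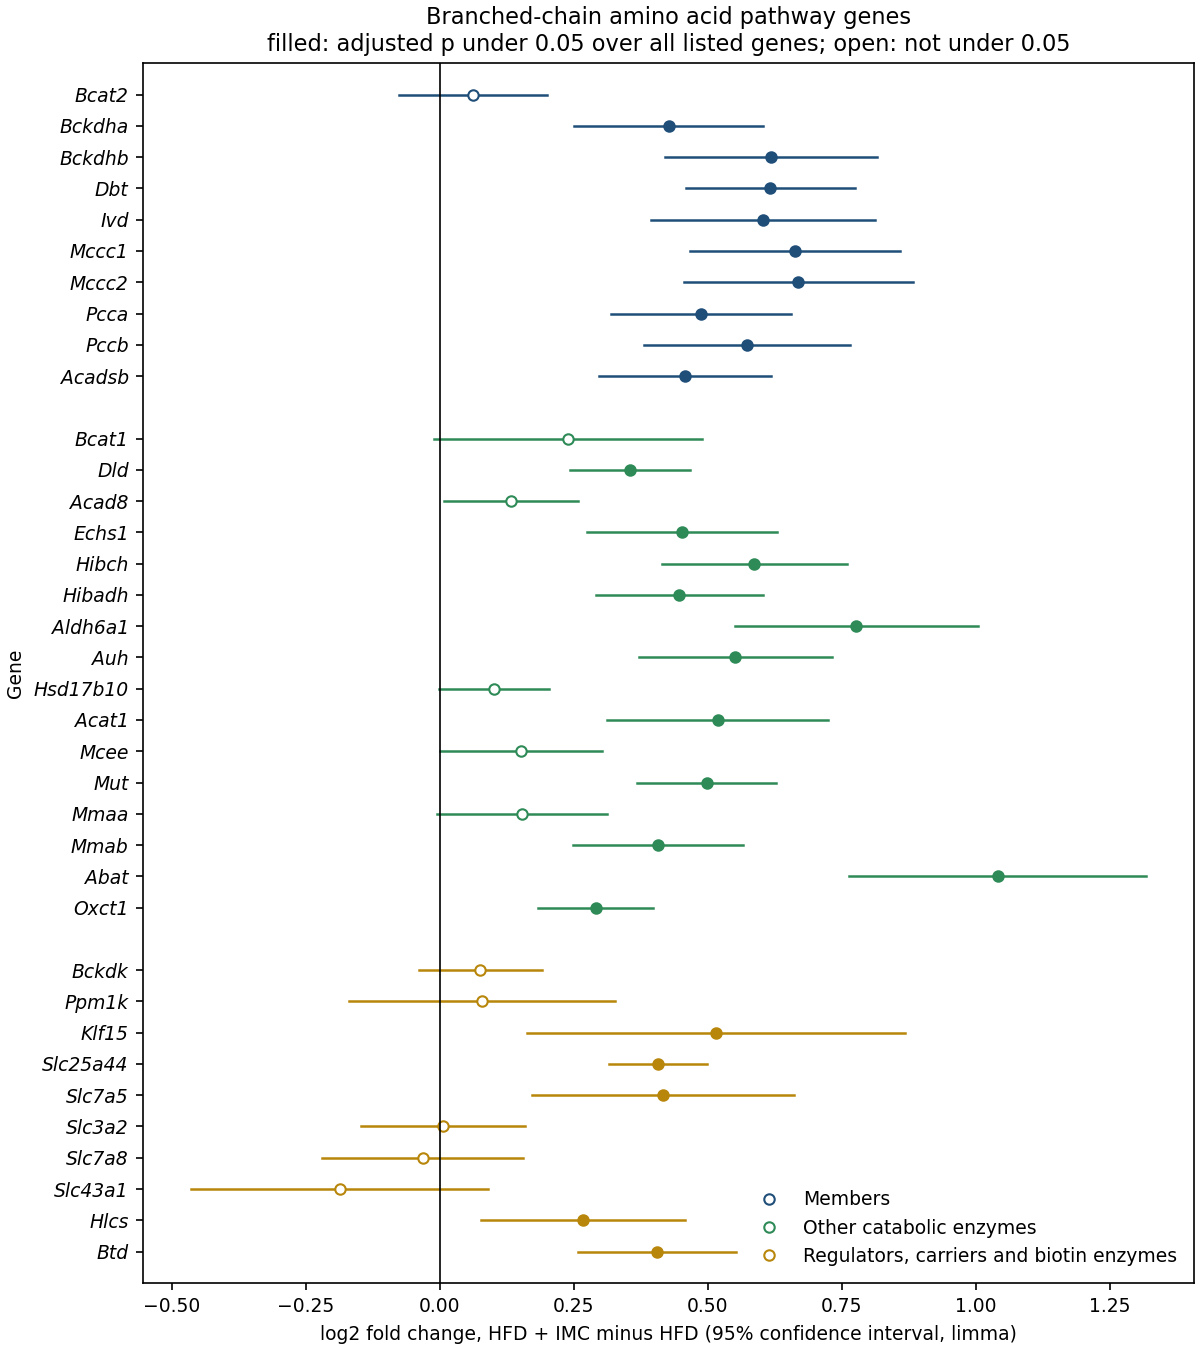
Log2 fold change (IMC-treated minus HFD control mice) with its 95% interval from limma for the 10 members, 16 other catabolic enzymes and 10 regulators, carriers and biotin enzymes. Filled points passed an adjusted p of 0.05 over all listed genes: 9 members, 11 other enzymes and 5 of the last set.

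Outside these lists and the cell type markers, the 5 genes whose log2 CPM followed the mean of the 10 members most closely over the 11 mice were D10Jhu81e (Pearson r 0.99), Yap1, Adhfe1, Pdhx and Dmtn (each with r of 0.99). The mice of both groups enter this r, so it also holds the difference between the groups. Adhfe1, an alcohol dehydrogenase family member, had 5.88 ± 0.26 log2 CPM in HFD control mice and 6.67 ± 0.17 in IMC-treated mice. Pdhx, a component of the pyruvate dehydrogenase complex, had 5.02 ± 0.12 and 5.43 ± 0.12.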

How the data were processed

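RNA sequencing of WAT from 11 mice was analysed, grouped by the treatment label. Trim Galore, STAR (mm10, UCSC transcripts, gene counts) and edgeR (removal of low transcripts, upper-quartile scaling) were run by the authors. The deposited values are log2 CPM for 12787 genes. The table also holds the authors' own log2 fold change, mean log2 CPM, likelihood-ratio score, p-value and FDR, none of which was used. The study tested counts, but because the file holds log2 values, the comparison was made with limma 3.58.1 under R 4.3.3 (linear fit by group, moderated with a trend, Benjamini-Hochberg adjustment over all genes). Whole reads could be recovered for 100% of values, to within 0.05 reads or 1e-8 log2 CPM, and served for depth and alternative scalings. Ratios had an exact permutation test (two-sided), whose smallest p for 5 against 6 mice is 0.00216. Fold changes carry the constant added before the log, about 0.25 reads. The fit was tested on simulated data. Positions and lengths came from GENCODE M21.

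The members, gene lists and tests were chosen with earlier results of these data known. Of the list of other catabolic enzymes, 1 gene with values is not reported here, so counts over that list do not cover it. Named were the members, listed pathway genes, marker genes and the 5 genes most like the members' mean. Alternatives were no variance trend, an added constant of 2 reads, a filter at a mean of 1 log2 CPM, total-read and median-of-ratios scaling, voom on recovered reads, the adipocyte markers as reference, and leaving out each mouse. Reads are not independent molecules, so depth bounds counting error only. Figures were made with matplotlib 3.10.9.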

Additional observations from a re-analysis of the deposited data

Results flagged for a closer look

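Among 84 groups examined, 1 held a mouse far from the others, where chance gives about 1 in 20. Slc7a8 had 5.52 log2 CPM in IMC-treated mouse 12, and the next lowest treated mouse had 5.92.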

How the results depend on the processing

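All calls and directions of the 10 members were kept without the variance trend, with a constant of 2 reads, with the filter on low values, with total-read or median-of-ratios scaling and with voom. Among the members and the listed pathway genes, the single change of direction under these settings was Slc3a2, at -0.026 under total-read scaling. Members called higher numbered 9 and lower 0 in each of the 11 fits that left out a mouse. In those fits 2178 to 2536 of all 12787 genes were called higher and 2113 to 2604 lower.
The adipocyte reference changed most results, because the markers rose by more than nearly all genes. The median of the 10 members was then -0.12, with 0 members higher and 4 lower. Of the other enzymes 1 was higher and 11 lower, and of the regulators, carriers and biotin enzymes 0 were higher and 9 lower. Over all genes 90.3% were called lower and 1.24% higher on this reference, with a median of -0.73. The log2 differences that turned negative were Bcat2 -0.64, Bckdha -0.28, Bckdhb -0.089, Dbt -0.090, Ivd -0.10, Mccc1 -0.044, Mccc2 -0.038, Pcca -0.22, Pccb -0.13, Acadsb -0.25, Bcat1 -0.47, Dld -0.35, Acad8 -0.57, Echs1 -0.25, Hibch -0.12, Hibadh -0.26, Auh -0.16, Hsd17b10 -0.60, Acat1 -0.19, Mcee -0.56, Mut -0.21, Mmaa -0.55, Mmab -0.30, Oxct1 -0.42, Bckdk -0.63, Ppm1k -0.63, Klf15 -0.19, Slc25a44 -0.30, Slc7a5 -0.29, Slc3a2 -0.70, Hlcs -0.44 and Btd -0.30.
Leaving out single mice gave between 3 and 5 of the 10 regulators, carriers and biotin enzymes higher, beside 2178 to 2536 of all 12787 genes. The difference of the log2 ratio Bckdha/Bckdhb lay between -0.22 and -0.17, of Mccc1/Mccc2 between -0.029 and 0.027 and of Bckdk/Ppm1k between -0.091 and 0.063. The log2 fold change lay between -0.037 and 0.056 for Slc3a2 and between -0.058 and 0.050 for Slc7a8. No paired analysis was possible because the mouse numbers are not shared between the groups.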
